A study of Mus musculus with 40 samples.

Results

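The comparison concerns the beginning and the end of an enhancer reporter screen in differentiating mouse cells, embryonic stem cells (ES) and hematopoietic progenitors (HP). Its members are the positive fragments of each stage, which are the DNA fragments recovered from the cells of the Low, Medium or High reporter gate of a replicate. They comprise 79321 of the 354627 different fragments of the 40 libraries, and they fall in 27994 of the 75060 regions formed by merging overlapping fragments of all libraries.

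HM-1 ES cells, a line of strain 129/ola with a non-functional Hprt locus, received Tn5-cut open-chromatin fragments in front of the HSP68 minimal promoter and a Venus-YFP gene. Integration repaired Hprt, so all groups carried the reporter there, and a cell received 1 fragment. ES cells were sorted as such, and HP were the floating KIT+ TIE2- CD41+ cells of the blast culture, so both belonged to 1 line and 1 in vitro system. The labels number 2 replicates. Per the methods, transfected cells were selected together and then differentiated, but whether a replicate number marks 1 transfection that supplied all its stages is not stated. The gates gave 12 positive and 4 Negative libraries at these stages, and a sort is 1 stage of 1 replicate. The lists hold fragment positions and no RNA measurement, so neither stage could be checked against the expression of its marker genes.

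Enhancers are stretches of DNA that raise transcription from a promoter at a distance, and their activity depends on the transcription factors a cell contains. In ES cells the network around OCT4, SOX2 and NANOG keeps the cells pluripotent. In the blood lineage, GATA factors, RUNX1 and PU.1 (the product of Spi1) bind enhancers of blood genes, and endothelial genes share many of these factors with early blood genes.

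The following stretches are the middle 300 bp of 5 regions. They were taken from the RefSeq copy of GRCm38 on the plus strand, and capitals mark matches to the motifs described with the sequence comparison. Trim71 was the pluripotency locus with most positive fragments (chr9:114541366-114541665, intron of Trim71), and its stretch matched KLF, GATA, CEBP and EBOX words.

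Trim71: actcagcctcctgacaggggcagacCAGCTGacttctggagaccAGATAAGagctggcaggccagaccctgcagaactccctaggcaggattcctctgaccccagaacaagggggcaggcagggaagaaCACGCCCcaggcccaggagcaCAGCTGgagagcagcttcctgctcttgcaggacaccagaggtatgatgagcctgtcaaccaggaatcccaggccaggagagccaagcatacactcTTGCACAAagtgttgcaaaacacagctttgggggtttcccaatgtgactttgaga

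The stretches at Zfpm1 (chr8:122273272-122273571, between genes) and Spi1 (chr2:91082838-91083137, intron of Spi1, 589 bp downstream of a start) represent blood factor loci with many positive HP fragments. The first held a CTCF match, and the second held none of the words searched.

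Zfpm1: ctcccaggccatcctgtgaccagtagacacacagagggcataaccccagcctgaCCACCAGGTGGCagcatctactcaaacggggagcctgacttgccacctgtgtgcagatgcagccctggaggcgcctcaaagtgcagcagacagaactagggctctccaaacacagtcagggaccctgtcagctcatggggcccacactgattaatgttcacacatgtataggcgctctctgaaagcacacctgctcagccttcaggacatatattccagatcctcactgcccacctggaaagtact
Spi1: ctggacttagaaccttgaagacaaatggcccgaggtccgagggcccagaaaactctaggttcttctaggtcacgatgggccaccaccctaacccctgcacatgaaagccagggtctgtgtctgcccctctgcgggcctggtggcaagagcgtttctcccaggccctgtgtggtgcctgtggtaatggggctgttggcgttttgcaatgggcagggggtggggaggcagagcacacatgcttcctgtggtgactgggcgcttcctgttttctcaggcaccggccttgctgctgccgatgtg

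The remaining stretches come from the regions with the lowest p in each direction. The region nearest Phf19 (chr2:34904933-34905232, in an intron) was found with positive fragments of ES, and that nearest Shank3 (chr15:89497699-89497998, between genes) with positive fragments of HP. KLF and EBOX words stood in the former and 1 GATA word in the latter.

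Phf19: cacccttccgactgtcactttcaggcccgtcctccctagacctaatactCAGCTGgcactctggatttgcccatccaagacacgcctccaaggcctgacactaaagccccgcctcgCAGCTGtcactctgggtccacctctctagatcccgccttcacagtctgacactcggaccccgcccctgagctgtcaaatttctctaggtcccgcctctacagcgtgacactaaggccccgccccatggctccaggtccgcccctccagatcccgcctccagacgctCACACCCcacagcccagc
Shank3: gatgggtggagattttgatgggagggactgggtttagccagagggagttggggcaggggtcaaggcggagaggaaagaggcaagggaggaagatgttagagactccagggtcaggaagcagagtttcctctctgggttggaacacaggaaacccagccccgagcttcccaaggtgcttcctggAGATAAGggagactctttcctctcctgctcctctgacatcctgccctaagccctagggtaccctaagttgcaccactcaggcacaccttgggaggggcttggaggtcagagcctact

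In replicate 1 there were 27717 positive fragments at ES and 39671 at HP, and in replicate 2 there were 9020 and 5208. The Negative gate held 10352 and 8458 fragments in replicate 1, and 2814 and 14951 in replicate 2. The replicates differed in kind. Mean GC content was 56.9% at ES and 56.0% at HP in replicate 1 against 50.0% and 50.3% in replicate 2, and the median distance to a transcription start was 14983 and 16111 bp against 24561 and 24682 bp. In replicate 2 the ES Medium library shared 2828 of its 4318 fragments (65.5%) with the HE1 Low library of the same replicate. In HP of replicate 1 the 4 gates had no fragment in common, whereas in the other 3 sorts 6.67% to 28.6% of the negative fragments were also positive.

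Positive fragments were shorter at HP in replicate 1. The median length was 184 bp at ES and 143 bp at HP in replicate 1, and 221 bp and 190 bp in replicate 2. Without the ES Medium library of replicate 2, the ES median of that replicate was 195 bp. In the Negative gate the medians were 186 and 184 bp, and 203 and 202 bp. The share of positive fragments centred in an intron was 39.5% at ES and 43.8% at HP in replicate 1, and 45.6% and 46.4% in replicate 2. With 2 replicates the smallest two-sided p of an exact test is 0.5, so these and all other shares below are values without a test.

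How many of the active regions do the ends share? Thinned to 27717 fragments each, ES and HP of replicate 1 had 10269 and 11507 positive regions, of which 4923 were common. This is 47.9% of the ES regions, 42.8% of the HP regions and a Jaccard index (common regions over all regions of either set) of 29.2%. In replicate 2, thinned to 5208 fragments, 525 of 4782 and 4364 regions were common, with a Jaccard index of 6.09%. At these depths, most regions of either stage were seen at 1 end alone in both replicates. The Negative fragments gave 18.6% at 8458 fragments and 2.70% at 2814, and since sharing grows with depth, these are not on the scale of the positive values.

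After thinning, the Jaccard index of HP was highest with HE2 in both replicates, though replicate 2 was thinned very unequally. In replicate 1 the regions of HP overlapped those of HE2, the later hemogenic endothelium, at 42.5%, those of HE1 at 40.3%, those of hemangioblasts (HB) at 36.7% and those of ES at 29.2%. The regions of ES overlapped most with HB, at 36.1%, and with HP (29.3%) slightly more than with HE1 (28.0%) or HE2 (26.9%). In replicate 2, at 3471 fragments a stage, the index of HP was again highest with HE2 (12.4%). It was 4.28% for ES, 4.70% for HB and 3.04% for HE1. HE2 was used whole there, whereas HE1 was thinned from 34809 positive fragments. The values of this replicate therefore do not rank the stages by likeness to HP. Before thinning, the HP Low library of replicate 2 shared 973 of its 2215 fragments (43.9%) with the HE1 Low library. It shared 903 (40.8%) with the HE2 Negative library. After the same thinning to 3471 fragments, the index of ES was highest with HE2 (8.23%) and lowest with HP (4.22%).

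**Figure D1:**
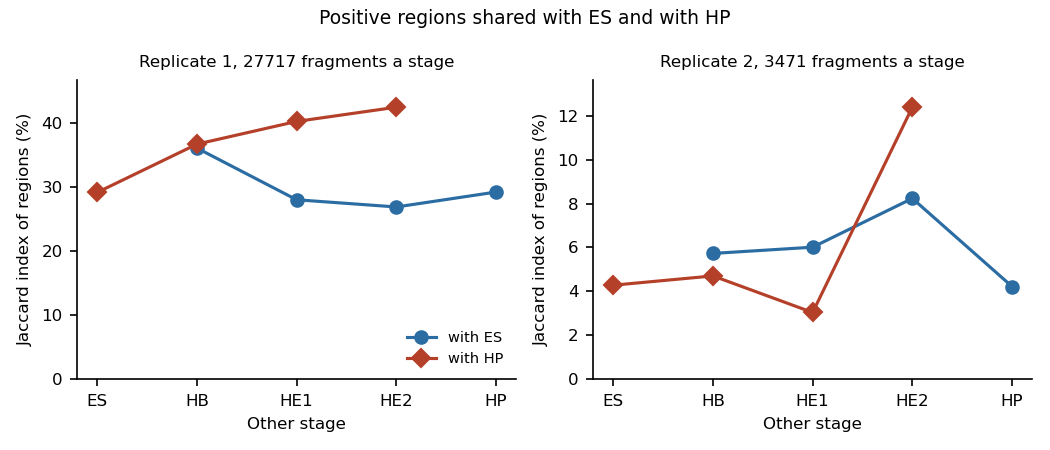
Jaccard index of positive regions (percent, vertical axis) between ES (circles) or HP (diamonds) and each other stage (horizontal axis), each replicate thinned to its smallest set among the stages compared. HP lies highest at HE2 in both replicates, at 42.5% and 12.4%.

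Regions recurred between replicates about as often within a stage as across the ends. At 5208 fragments per sort, the Jaccard index was 3.30% between the ES sorts and 3.21% between the HP sorts. It was 3.20% between ES of replicate 1 and HP of replicate 2, and 3.13% for the opposite pair. The mean for matching stages exceeded that for different stages by 0.09 percentage points.

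Identical fragments, with both ends in common, were followed from ES to HP. In replicate 1, 1171 of the positive ES fragments (4.22%, Wilson 95% interval 3.99 to 4.47) were positive at HP and 314 (1.13%) were negative there. In replicate 2 the numbers were 795 (8.81%, 8.25 to 9.42) and 973 (10.8%). Of the negative ES fragments, 463 (4.47%) and 480 (17.1%) were positive at HP. Fragments of the ES Negative gate were thus found again among positive HP fragments about as often as positive ES fragments, or more often. The groups overlap, since 698 (6.74%) and 806 (28.6%) of the negative ES fragments were also positive at ES. Fragments negative alone were not followed separately. Intervals cover counting error only, as the PCR products carried no molecular identifiers.

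Among regions with at least 20 positive fragments in the 4 sorts, 314 were tested, and 14 passed (4.46%), 9 with more fragments at ES (2.87%) and 5 with more at HP (1.59%). The test was the Cochran-Mantel-Haenszel test with the replicates as strata and Benjamini-Hochberg adjustment at 0.05, which compares these sorted populations by their fragments and does not measure the spread between cultures. The median log2 odds ratio of HP over ES over all 314 regions was -0.42. At an unadjusted p under 0.05 there were 44 (14% of those tested). In 4 of the 14 (1.27% of those tested) the direction was the same in both replicates. With fragments that share a start or an end counted once, 1 of 197 regions passed, that near Phf19. With limma and a replicate block 1 passed, that near Inka1. In replicate 1 alone 8 of 287 passed.

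The region near Phf19, a Polycomb-associated protein, spans chr2:34904620-34905546 and had the lowest p. It held 50 positive fragments at ES and 0 at HP of replicate 1, and 0 and 1 in replicate 2 (adjusted p = 2.4e-13, Cochran-Mantel-Haenszel test). The Negative gate held 21 and 0, then 0 and 1, fragments there. Positive and negative fragments were thus both present at ES of replicate 1 and both at 0 at HP. Counting fragments that share an end once left 33 positive ES fragments. The intergenic region nearest Pex2, a peroxisome assembly gene, had 21, 0, 0 and 1 positive fragments (ES and HP of replicate 1, then of replicate 2, the order used from here on). Its negative fragments followed at 11, 0, 1 and 2.

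Among the regions with more fragments at HP, that nearest Shank3, a synaptic scaffold gene, held 0, 24, 0 and 0 positive and 0, 5, 0 and 0 negative fragments (chr15:89497508-89498189, adjusted p = 0.00793, Cochran-Mantel-Haenszel test). All its fragments came from HP of replicate 1. The region nearest Ap1m1, which encodes a clathrin adaptor subunit, had 0, 25, 1 and 0 positive fragments and 0, 5, 2 and 4 negative ones. Near Inka1 there were 0, 19, 0 and 1, in an intron of Spns2, a sphingosine-1-phosphate transporter, 0, 20, 0 and 0, and upstream of Kdm6b, a histone H3 lysine demethylase, 0, 19, 2 and 1. None of the 5 regions had a positive or a negative fragment at ES of replicate 1.

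In 1 region the positive and the negative gates ran in opposite directions in both replicates. The intronic region of Stx3, a membrane fusion protein, held 15, 3, 10 and 0 positive fragments but 0, 18, 0 and 13 negative ones (chr19:11800494-11801067, adjusted p = 0.00329 for the positive fragments). At ES its fragments were positive and at HP mostly negative. All 10 positive ES fragments of replicate 2 came from the Medium library, and without that library the region fell below the minimum for the test. Of its 59 fragments 54 ended at position 11800770, with 20 different starts between 11800496 and 11800544 that differed by multiples of 2 bp. With shared ends counted once, the positive counts were 3, 2, 1 and 0 and the negative ones 0, 1, 0 and 1. The difference between the positive and the negative change, with 0.5 added to every count, passed the threshold for Stx3 alone (1 of 314 regions, 0.318%, adjusted p = 0.00394). Without that addition 0 of 283 regions passed. Stx3 was not among these 283, because without negative ES fragments its odds ratio was not finite.

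The region downstream of Gadd45g, a stress-response gene, had 15, 4, 7 and 0 positive fragments, higher at ES in both replicates (adjusted p = 0.0110, Cochran-Mantel-Haenszel test), and 11, 4, 1 and 0 with shared ends counted once. A region upstream of Zmiz2 had 35, 17, 1 and 1. Others with more fragments at ES lay nearest H19 (16, 5, 1 and 0), Serpinh1 (34, 20, 0 and 0) and 3930402G23Rik (29, 14, 0 and 1). Outside Stx3 and Gadd45g, each of the 9 regions had at most 1 positive ES fragment from replicate 2. In the Negative gate 17 regions had enough fragments, and 4 of them passed (23.5%).

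**Figure D2:**
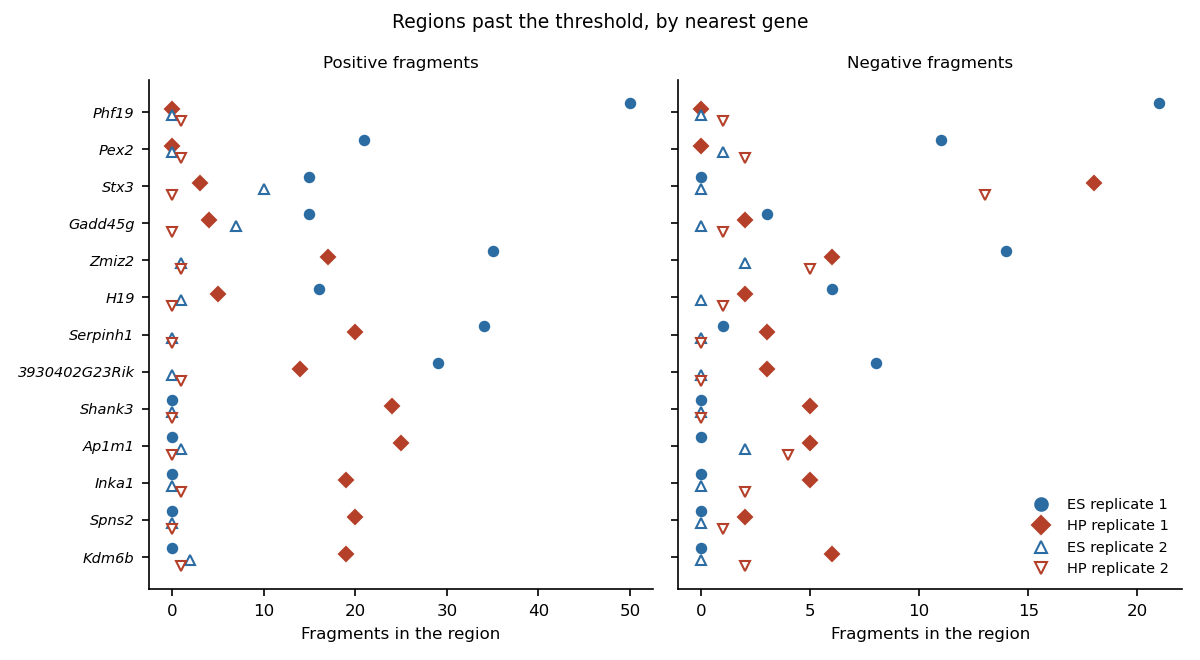
Fragments (horizontal axis) in 13 of the regions that passed the test, named by the nearest gene, with positive fragments on the left and negative fragments on the right. Circles and diamonds are ES and HP of replicate 1, open triangles those of replicate 2. Phf19 stands at 50 positive ES fragments, and the 5 regions at the bottom have none at ES of replicate 1.

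The pattern at Phf19 and Shank3 was shared by other regions present in quantity at 1 end. In replicate 1, 352 regions had at least 10 positive ES fragments, and 19 of these had none at HP. Those 19 regions held 284 positive and 105 negative fragments at ES and 0 of either kind at HP. Conversely, 462 regions had at least 10 positive HP fragments and 90 of them had none at ES. They held 1183 positive and 207 negative fragments at HP against 0 and 1 at ES. Without positive fragments at 1 end, a region was therefore also without negative ones there in 19 of 19 and in 89 of 90 cases. Among all 352 and 462 regions, 59 and 107 had no negative fragment at the other end. In replicate 2, 6 of the 19 regions had a positive ES fragment and 2 a positive HP fragment, and 22 of the 90 had a positive ES fragment and 17 a positive HP fragment. The lists alone do not tell whether a missing fragment was inactive, not recovered or removed by a filter. The methods describe a filter that requires an ATAC peak of the matching stage, and whether it was applied to these lists is not stated.

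Positive in both ES sorts and in no HP sort were 209 regions, and 181 showed the reverse. The opposite combinations, ES of 1 replicate with HP of the other, gave 76 and 271 regions. The 209 regions included 1 near Cln6 (17, 0, 1 and 0) and an exonic one near Sox12, a SoxC factor gene (16, 0, 1 and 0). They comprised 2 in the windows of pluripotency genes (Dnmt3l and Trim71) and 2 in those of blood genes (Meis1 and Rac2), and the 181 comprised 0 and 2 (Vav1 and Cbfa2t3). Of all 27994 regions with a positive fragment at an end, 0.257% lay in pluripotency windows and 0.650% in blood windows. All 4 sorts held positive fragments in 127 regions. Among these was an intronic region of Jarid2 with 11, 17, 2 and 1.

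Gene loci were compared by windows of the gene and 25000 bp on either side. Of 2709 loci with at least 20 positive fragments 78 passed (2.88%), 39 with more at each end (1.44% each), and 50 had the same direction in both replicates (1.85%). In the Negative gate 7 of 296 loci passed (2.36%). The median log2 odds ratio over all loci was -0.17 in the positive fragments. Windows overlap, so neighbouring genes share fragments. With shared ends counted once 29 of 2289 loci passed, all among the 78.

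The pluripotency list held 30 genes, of which 27 had a positive fragment at an end. Its windows contained 0.361% of the positive fragments at ES (100 fragments, Wilson 95% interval 0.297 to 0.439) and 0.237% at HP (94, 0.194 to 0.290) in replicate 1. In replicate 2 the shares were 0.211% (19) and 0.192% (10). HP over ES was 0.657 and 0.912. The mean log2 of these folds was -0.37, but -0.059 with gene bodies alone as windows and -0.17 with windows of 100000 bp. The lower share at HP was found in the Negative gate too, at 0.484 and 0.784. In replicate 1, 21 genes had a higher share at ES and 6 at HP. Of the 3 loci with enough fragments 0 passed the test, with a median log2 odds ratio of -0.31 against -0.17 for all loci.

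The pluripotency windows with most fragments did not lean to ES beyond the test's threshold. Trim71, an RNA-binding regulator of early development, had 12, 26, 5 and 3 positive and 11, 4, 0 and 1 negative fragments (log2 odds ratio 0.50 ± 0.45 (SE), adjusted p = 0.793, Cochran-Mantel-Haenszel test). Jarid2, a PRC2 cofactor, had 15, 17, 3 and 1 (adjusted p = 0.939). Esrrb, a nuclear receptor of the ES network, had 9, 11, 3 and 1 (adjusted p = 1). These 3 loci had positive fragments in all 4 sorts. The Trim71 region shown above had 9, 14, 1 and 0 positive and 8, 3, 0 and 0 negative fragments.

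Core factors had few fragments. Klf4 had 8, 8, 0 and 0 positive fragments, Nanog 3, 5, 0 and 0, and Sall4 3, 5, 1 and 0. Sox2 had 5, 1, 1 and 0, and Lefty2, a Nodal antagonist, 7, 4, 0 and 0. Pou5f1, which encodes OCT4, had 2, 0, 0 and 0. Dppa3, Nr0b1 and Nr5a2 had none. At such numbers a difference between the ends was not detectable at these loci.

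In replicate 1 the regions behind these windows were split more clearly than the fragments. After thinning in replicate 1, 59.7% of the positive regions in pluripotency windows were found at ES alone, 15.4% at HP alone and 24.8% at both. Over all regions the shares were 31.7%, 39.0% and 29.3%. In replicate 2 the windows gave 55.8%, 36.5% and 7.73% against 49.3%, 44.6% and 6.08% overall. The window shares rest on few regions, on average 32.5, 8.4 and 13.5 in replicate 1 and 10.1, 6.6 and 1.4 in replicate 2. Negative fragments were not split in this way.

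Windows of the 26 blood transcription factors leaned to HP. They held 0.317% of the positive fragments at ES (88, Wilson 95% interval 0.258 to 0.391) and 0.572% at HP (227, 0.503 to 0.651) in replicate 1, and 0.355% (32, 0.251 to 0.500) and 0.442% (23, 0.294 to 0.662) in replicate 2. HP over ES was 1.80 and 1.24 in the positive fragments and 1.71 and 0.669 in the negative ones. In replicate 1, 22 of the 26 genes had a higher share at HP and 2 at ES, and in replicate 2 the numbers were 10 and 7. None of the 6 loci with enough fragments passed the test (median log2 odds ratio 0.26). With windows of 100000 bp the mean log2 of HP over ES was 0.20 in place of 0.58. The intermediate stages of replicate 1 lay between the ends, at 0.506% for HB, 0.484% for HE1 and 0.497% for HE2. In replicate 2 they did not, with 0.426%, 0.448% and 0.547% and HP at 0.442%.

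Spi1 had 6, 18, 0 and 1 positive fragments, or 2.16 and 4.54 per 10000 in replicate 1 (log2 odds ratio 1.19 ± 0.67 (SE), adjusted p = 0.476, Cochran-Mantel-Haenszel test). Its intronic region, the stretch shown above, had 0, 11, 0 and 0 positive and 0, 3, 0 and 1 negative fragments. This region lay 589 bp downstream of a Spi1 start, within the 1500 bp that the paper counts as promoter. Of the 18 positive HP fragments of replicate 1, 11 lay in this intronic region. Zfpm1, which encodes the GATA1 partner FOG-1, had 11, 27, 1 and 1 (adjusted p = 0.564), and its region shown above 3, 5, 0 and 0. Meis1, a homeobox factor of stem and progenitor cells, had 18, 32, 3 and 1, and Gata2 had 10, 17, 1 and 1 (adjusted p = 0.994 and 1). All 4 had more fragments at HP of replicate 1, the deeper sort, and 0 to 3 per sort in replicate 2.

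Several blood factor loci below the minimum for the test had few ES fragments. Cbfa2t3, a corepressor of the TAL1 complex, had 0, 13, 1 and 2 positive fragments, Tal1 itself 4, 13, 1 and 0, and Mecom 3, 13, 1 and 1. Fli1, an ETS factor, had 0, 5, 2 and 5. The region upstream of Tal1 at chr4:115052402-115053352 had 0, 7, 0 and 0. In each of these windows replicate 1 held more fragments at HP than at ES, also per 10000. Some other members below the minimum were nearly even or leaned to ES in a replicate. Cebpb had 6, 10, 0 and 0 (2.16 and 2.52 per 10000 in replicate 1) and Lmo2 2, 3, 0 and 0. Bcl11a had 0, 1, 4 and 1, and Nfe2 had 1, 0, 0 and 0. Lyl1, a TAL1 relative, had 11, 15, 4 and 0 (adjusted p = 0.982), or 3.97 and 3.78 per 10000 in replicate 1.

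Runx1, required for the endothelial-to-hematopoietic transition, ran in opposite directions in the replicates, with 3, 10, 11 and 2 positive fragments (adjusted p = 1). The negative fragments of its window were 1, 2, 1 and 11. With shared ends counted once, ES of replicate 2 had 6 positive fragments in place of 11. The region 3652 bp downstream of a Runx1 start (chr16:92822070-92822770, intron) had 0, 5, 1 and 0.

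The regions of the blood factor windows, formed by the same fragments, leaned to HP as well. In replicate 1, 54.8% of the positive regions in blood factor windows were found at HP alone, 16.2% at ES alone and 29.0% at both, against 39.0%, 31.7% and 29.3% over all regions. In replicate 2 they were 54.1%, 42.3% and 3.61%, against 44.6%, 49.3% and 6.08%. These shares of replicate 2 rest on an average of 18.75, 14.65 and 1.25 regions.

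**Figure D3:**
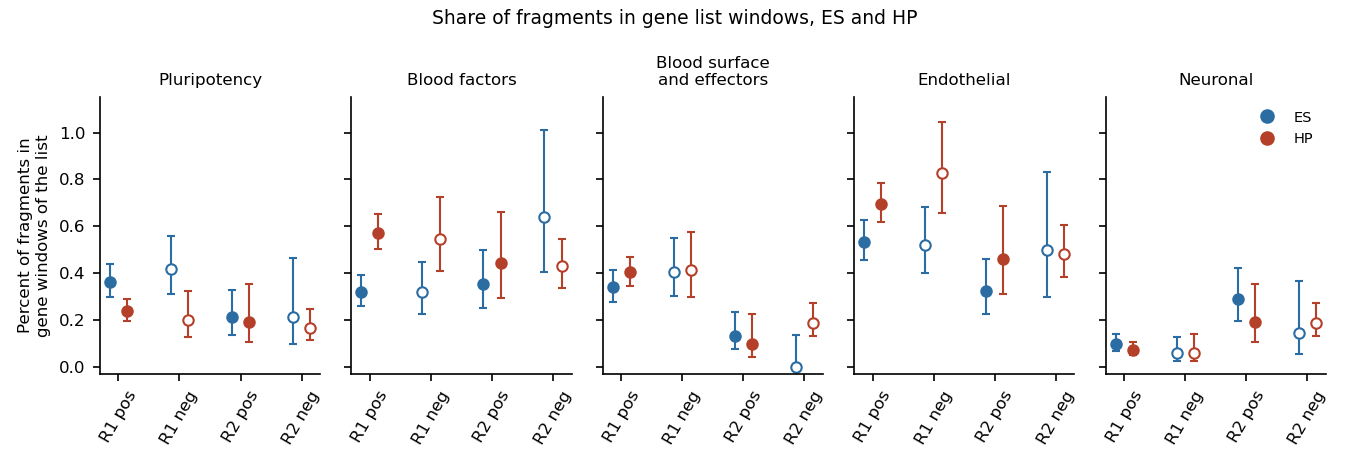
Percent of the fragments of a sort in the windows of each gene list (vertical axis) for positive (filled) and negative (open) fragments of ES (blue) and HP (red), replicates R1 and R2 apart, with Wilson 95% intervals. Blood factor windows stand at 0.317% at ES and 0.572% at HP in the positive fragments of replicate 1.

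The 23 blood surface and effector genes showed no common direction. Their windows held 0.339% of the positive fragments at ES and 0.403% at HP in replicate 1 (fold 1.19), and 0.133% and 0.0960% in replicate 2 (fold 0.722). In replicate 1, 12 genes had a higher share at HP and 7 at ES. None of the 5 loci with enough fragments passed the test, with a median log2 odds ratio of -0.35. In the Negative gate the fold of replicate 1 was 1.02, and ES of replicate 2 held 0 of 2814 negative fragments.

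Itga2b encodes CD41, one of the markers by which HP were sorted. Its window held 24, 29, 3 and 0 positive fragments (log2 odds ratio -0.35 ± 0.39 (SE), adjusted p = 0.891, Cochran-Mantel-Haenszel test). At the CD41 locus the difference between the ends was smaller than its standard error. The other sorting markers had few fragments, with 0, 1, 0 and 0 at Kit and 1, 2, 0 and 0 at Tek, which encodes TIE2. Vav1, a blood-restricted exchange factor, had 15, 29, 0 and 2 in all, and an intronic region in it had 0, 17, 0 and 0 with 0, 5, 0 and 1 negative fragments.

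The platelet integrin gene Itgb3 had 10, 16, 0 and 1 positive fragments, and Spn, which encodes CD43, had 13, 15, 1 and 0. Ptpn6, the SHP-1 phosphatase gene, had 11, 9, 2 and 1. The lowest adjusted p among the tested loci of this list was 0.695, for Vav1. Csf1r, the M-CSF receptor gene, had 0, 11, 1 and 0, and Laptm5 had 1, 13, 1 and 0. Alox5ap (0, 7, 0 and 0) and Cd34 (0, 6, 0 and 0) had no positive ES fragment. Other members below the minimum had more at ES, among them Coro1a, an actin-binding coronin gene, with 7, 2, 0 and 0, Csf2rb with 3, 2, 0 and 0, Was with 2, 0, 0 and 0 and Lcp1 with 0, 0, 2 and 0.

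**Figure D4:**
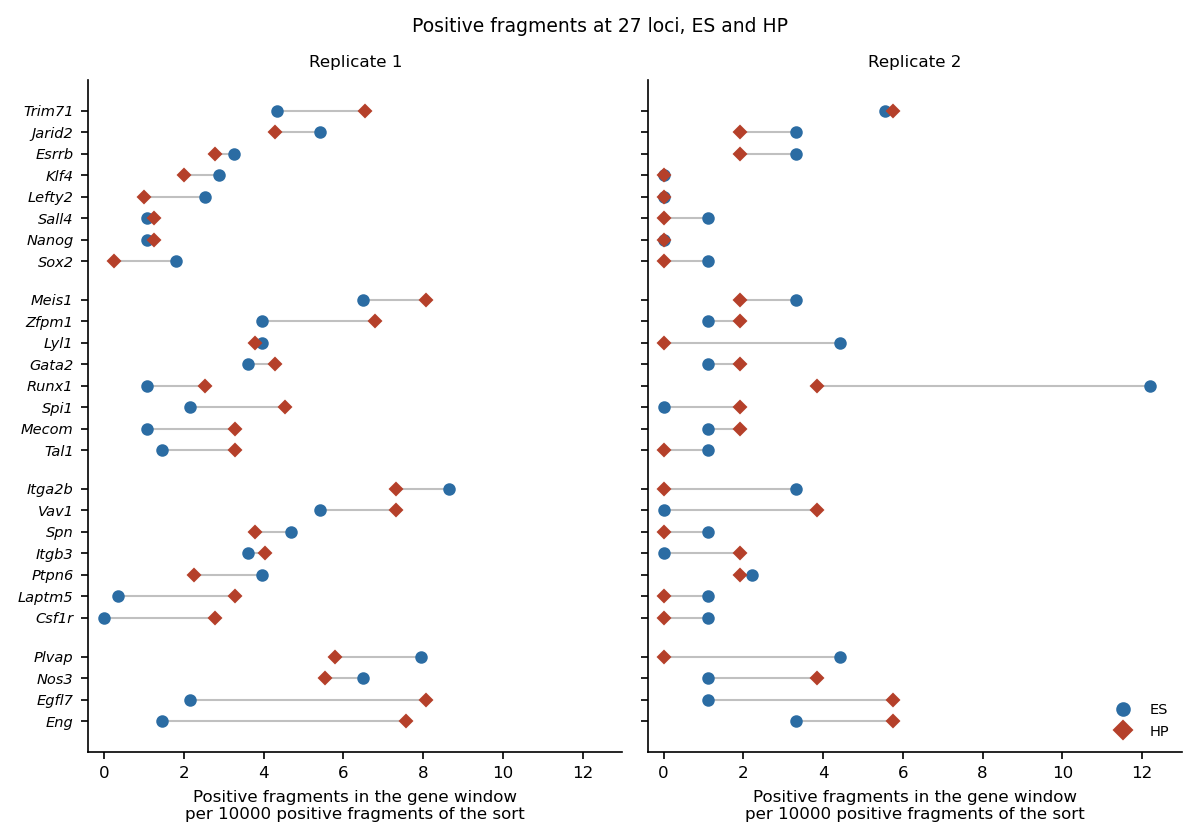
Positive fragments per 10000 of the sort (horizontal axis) in the windows of 27 list genes with most fragments, for ES (circles) and HP (diamonds) and each replicate. In replicate 1 the ES and HP points of Eng and Egfl7 lie farthest apart toward HP, at 1.44 and 7.56 and at 2.16 and 8.07.

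Of the 5 lists the endothelial one alone had loci past the threshold, 2 of the 9 tested, both with more at HP, against 1.44% of all loci in that direction. The list as a whole was nearly even by genes, as 13 of its 25 genes had a higher share at HP of replicate 1 and 10 at ES, and the median log2 odds ratio of the 9 was 0.045. Egfl7, a secreted angiogenic factor, had 6, 32, 1 and 3 positive and 4, 9, 6 and 4 negative fragments (log2 odds ratio 1.95 ± 0.60 (SE), adjusted p = 0.0377, Cochran-Mantel-Haenszel test). Eng, the TGF-beta co-receptor endoglin, had 4, 30, 3 and 3 positive and 0, 6, 1 and 2 negative fragments (2.04 ± 0.63, adjusted p = 0.0385). Relative to depth, HP held more positive fragments at both loci in both replicates. Neither passed the test of the difference between positive and negative fragments. With shared ends counted once, the adjusted p was 0.138 for Egfl7 and 0.123 for Eng, and with windows of 100000 bp it was 0.510 and 0.508. Neither passed with limma and the replicate block over the 4 sorts (adjusted p = 0.796 and 0.936), and Egfl7 did not pass in replicate 1 alone (adjusted p = 0.0664).

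At Egfl7 the fragments of a region 9039 bp upstream of its start were 0, 14, 0 and 0, and at Eng those of a region 8537 bp upstream were 0, 11, 1 and 1. Sox18, an endothelial SoxF gene, had 4, 28, 0 and 0 (adjusted p = 0.0552). Plvap had 22, 23, 4 and 0 and Nos3, the endothelial nitric oxide synthase gene, 18, 22, 1 and 2, and neither passed. The list windows had a share of 0.534% at ES and 0.696% at HP in replicate 1 and of 0.322% and 0.461% in replicate 2, a fold of 1.30 and 1.43. In the Negative gate the fold was 1.59 and 0.968. The mean log2 of HP over ES in the positive fragments was 0.45, but 1.07 without the ES Medium library of replicate 2 and -0.011 with gene bodies alone as windows. The share peaked between the ends in replicate 1, with 0.814%, 0.774% and 0.902% at HB, HE1 and HE2. In replicate 2 it was 0.295%, 0.307% and 0.432% at these stages and highest at HP.

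The neuronal genes, a list of another lineage, held 0.0974% and 0.0731% of the positive fragments of replicate 1 and 0.288% and 0.192% of those of replicate 2. HP over ES was 0.750 and 0.666. Only Shank2 had enough fragments (9, 9, 3 and 1), and it did not pass.

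Of the loci that the study examines one by one, 7 had enough fragments and none passed. For several of them the study measured single elements in reporter lines, and counts over whole windows do not repeat those measurements. Pxn, the paxillin gene, had 37, 42, 4 and 2 positive fragments, Sparc 23, 35, 2 and 0, and Hspg2, the perlecan gene, 15, 14, 4 and 0. Notch1 had 8, 21, 10 and 0, again in opposite directions in the replicates, with 2, 2, 1 and 11 negative fragments. Of its 10 positive ES fragments of replicate 2, 9 came from the Medium library, and without that library the log2 odds ratio was 0.74 in place of 0.045. Eif2b3 had 8, 11, 1 and 1, Dlk1 3, 6, 0 and 0, Galnt1 6, 3, 0 and 0, and Sox17 0, 0, 1 and 0.

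Outside the lists, some loci were singled out after their values were seen. Cd33, a sialic acid-binding receptor gene of myeloid cells, had 1, 14, 0 and 8 positive and 0, 2, 1 and 1 negative fragments (log2 odds ratio 4.20 ± 1.41 (SE), adjusted p = 0.00413, Cochran-Mantel-Haenszel test). HP exceeded ES in both replicates. With shared ends counted once, the positive fragments were 1, 13, 0 and 2, below the minimum for the test. Gsg1l, an AMPA receptor auxiliary gene, had 2, 11, 5 and 14 positive and 0, 2, 12 and 11 negative fragments (adjusted p = 0.0206). Without added counts, it was the only locus whose positive change differed from its negative change (1 of 2601, 0.0384%, adjusted p = 0.00737). Those 2601 leave out loci without a finite odds ratio, among them Stx3, which had no negative ES fragment. With shared ends counted once, its positive fragments were 2, 10, 2 and 4 and its negative ones 0, 2, 1 and 3. The 12 negative ES fragments of replicate 2 thus fell to 1, and the difference was not tested on these counts. With 0.5 added to every count 3 of 2709 loci passed (0.111%), Gsg1l, Stx3 and the overlapping Gm41810.

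At ES, Dnajb12, a chaperone gene, had 24, 0, 3 and 0 positive fragments with 10, 0, 2 and 5 negative ones. Sox12 had 30, 8, 2 and 1, and Nr4a1, an immediate early nuclear receptor gene, 53, 31, 0 and 1. On the HP side Tbc1d7, a subunit of the TSC complex, had 0, 26, 0 and 2 positive and 0, 1, 0 and 3 negative fragments.

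Are the sequences of the fragments those of the respective lineage? Matches per 100 kb of fragment sequence were counted on both strands for the words of 15 motifs, none of which contained another. For pluripotency they were ATGCAAAT for the OCT factors, ACAATGG or else ACAAAGG for the SOX factors, TCAAGGTCA for ESRRB, GGGTGTG or else GGGCGTG for KLF factors, and TTCCNGGAA for STAT factors. For blood they were TGTGGTT or else TGTGGTC for RUNX factors, GAGGAAGT for PU.1, AGATAAG for the GATA family, TTGCGCAA or else TTGCACAA for CEBP factors and AATCACNGC for GFI1. The general ETS word was CCGGAAGT and the EBOX word, bound by TAL1 and relatives, was CAGCTG. The words TGACTCA for AP-1 and GGAATGC or else GGAATGT for TEAD factors, with the CTCF motif, completed the set. Of the 300 bp around the centres of 75043 regions, 5.85% held GATA, 3.59% PU.1, 12.9% RUNX, 1.58% OCT, 12.4% SOX, 10.7% KLF, 19.7% EBOX, 9.77% AP-1, 9.71% TEAD and 2.73% CTCF words. For CEBP the share was 0.990%, for STAT 1.23%, for GFI1 0.770%, for ESRRB 0.700% and for ETS 0.485%.

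GATA words had the largest difference between the ends in replicate 1. Their density in positive fragments was 11.2 at ES and 29.0 at HP of replicate 1, and 16.6 and 19.4 in replicate 2 (log2 of HP over ES 1.38 and 0.22). In the Negative gate the log2 values were 1.47 and 0.29. The density of GATA words was therefore higher at HP whether or not the cells had a reporter signal. In replicate 1, fragments in regions found at HP alone had 50.3 matches per 100 kb, those found at ES alone 11.4, and those in common regions 11.1 at ES and 12.2 at HP. The higher density lay in the regions found at HP alone. In replicate 2 the fragments of such regions had 22.0 at HP and 17.4 at ES.

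PU.1 words followed in replicate 1 with 10.6 at ES and 18.7 at HP, but gave 8.46 and 8.63 in replicate 2. The log2 values were 0.82 and 0.03 in the positive and 0.89 and -0.06 in the negative fragments. RUNX words had 37.6 and 53.6, then 42.7 and 41.1, and log2 values of 0.51 and -0.05 against 0.51 and 0.08 in the negative fragments. In replicate 2 the density of both words in the positive fragments was nearly equal at the ends, and PU.1 gave -0.13 there without the ES Medium library. In regions of replicate 1 found at HP alone the density was 29.4 for PU.1 and 72.7 for RUNX against 11.6 and 37.1 at ES alone.

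OCT words leaned to ES. They had 6.76 at ES and 5.07 at HP in replicate 1 and 5.86 and 4.89 in replicate 2 (log2 -0.41 and -0.26). The Negative gate gave -0.31 and 0.78. In replicate 1, fragments of regions found at ES alone had 7.73 and those at HP alone 3.43. The SOX words gave log2 values of -0.13 and -0.10, ESRRB -0.16 and -0.18, and KLF -0.23 and -0.04, all lower at HP in both replicates. ESRRB had 56 matches at ES and 24 at HP of replicate 2. With 1 fragment per region its density in replicate 1 was 2.10 at ES and 2.25 at HP, the reverse direction. STAT was the exception among the pluripotency words with 0.17 and -0.19.

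Of the 15 motifs 10 had the same direction in both replicates. EBOX words gave 0.12 and 0.12 in density, whereas the mean log2 of the share of fragments with a match, which depends on fragment length, was -0.11. AP-1 gave 0.20 and 0.23, TEAD -0.18 and -0.13, and CTCF 0.08 and 0.48. For CTCF the Negative gate gave -0.53 and -0.61, and the replicate 2 value of the positive fragments was 0.097 without the ES Medium library. CEBP gave 0.27 and -0.44, GFI1 -0.22 and 0.32, and ETS -0.11 and 0.04, without a common direction.

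**Figure D5:**
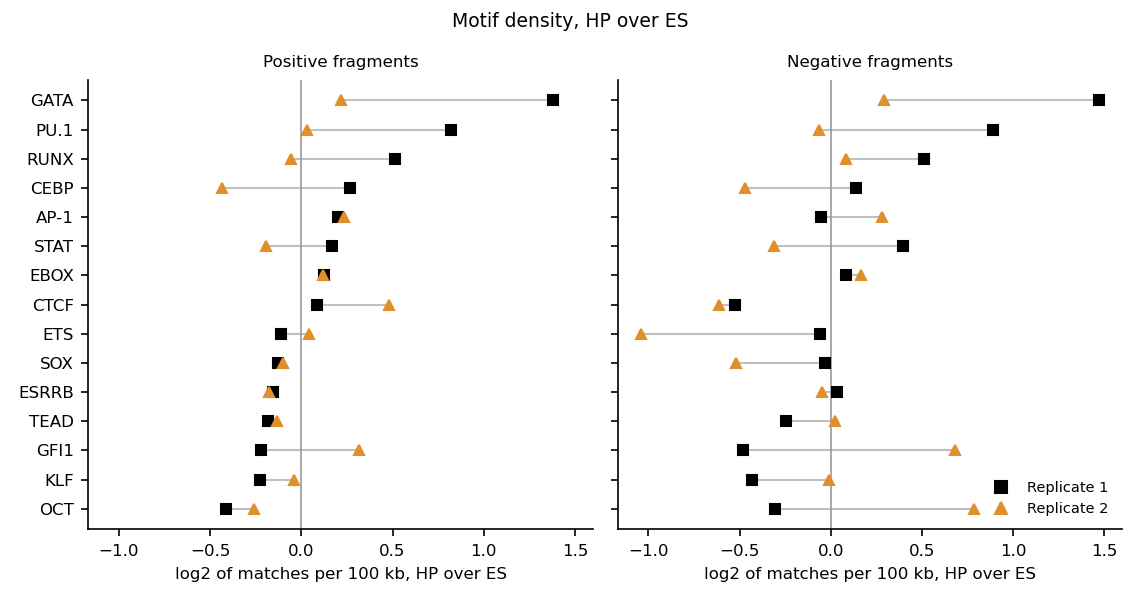
Log2 of the motif density (matches per 100 kb) of HP over ES (horizontal axis) for 15 motifs, in positive fragments on the left and negative fragments on the right, replicate 1 as squares and replicate 2 as triangles. GATA stands highest for replicate 1 in both panels, at 1.38 and 1.47.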

How the data were processed

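Per the labels and the methods, the authors used Trim Galore on the read pairs, Bowtie2 against mm10, and SAMtools and bedtools to derive fragments, each unique fragment kept once. Versions are not given in the sources used here. The deposited lists hold coordinates (start and end positions) of unique fragments, 1 list per library, without read counts, so the number of fragments is the depth. Whether the described filters on open chromatin, which include an ATAC peak of the matching stage, and on background were applied to them is not stated. Lists contained 458486 lines and fragments of 66 to 599 bp.

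Libraries were grouped by their titles. Positive fragments were the union of the Low, Medium and High lists of a sort. Overlapping fragments of all 40 lists were merged into regions, and sets were thinned with the mean of 20 seeded draws. A fragment belonged to a gene locus if its centre lay in the RefSeq gene or within 25000 bp. Regions and loci with at least 20 positive fragments in the 4 sorts were tested by the Cochran-Mantel-Haenszel test with continuity correction and Benjamini-Hochberg adjustment at 0.05 (numpy 2.4.6, scipy 1.17.1), with the replicate as stratum. Whether a replicate number marks 1 transfection is not stated, so the strata rest on the numbers in the titles. Fragments of a sort are not independent, so p-values measure counting error within these libraries. limma 3.58.1 in R 4.3.3 over the 4 sorts was an alternative. Fragments that share an end, and the ES Medium library of replicate 2, were examined after seeing the data.

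Named genes were the 8 with most positive fragments in each of the pluripotency and the 2 blood lists, the 4 with most endothelial ones, the 10 loci of the study and the 5 regions with the lowest p in each direction. Single values of a few of these are not reported here. Members and lists were chosen with earlier results of these data known. The test was tested on simulated data at the real depth of the ES and HP regions (317 regions). It called 98% of 50 regions with 4-fold and 28% of 50 with 2-fold higher odds at HP, 10 of 21 with an odds ratio of 0.5, and 0 of 189 unchanged ones. At 10 times the depth it called 8 of 105 unchanged regions. The simulated fragments were drawn independently, unlike those of a sort. The simulation therefore cannot show how often fragments with shared ends lead to false calls.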

Additional observations from a re-analysis of the deposited data

How the results depend on the processing

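The count of regions past the threshold (14 of 314 tested) depended on the setting, and so did the number tested. It was 36 of 1475 with a minimum of 10 fragments and 7 of 52 with a minimum of 40. With near-identical fragments collapsed it was 7 of 287, and with fragments that share an end counted once 1 of 197. Without the replicate block 8 passed, all among the 14. Leaving out replicate 1 gave 0 of 1 tested, and leaving out replicate 2 gave 8 of 287. Leaving out the ES Medium library of replicate 2 gave 13 of 310. With limma over the 4 sorts 1 passed with the replicate block and 0 without it, where 1 region had an unadjusted p under 0.05. For the Negative gate (4 of 17) the count was 1 of 11 with fragments collapsed and 1 of 8 with shared ends counted once. It was 2 and 0 with limma with and without the block, and without the block 1 region had an unadjusted p under 0.05. Leaving out replicate 1 gave 2 of 2 tested, and leaving out replicate 2 gave 1 of 8.

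Of the 2709 loci tested, 78 passed. There were 32 of 612 tested with a minimum of 40 fragments and 29 of 2289 with shared ends counted once. Windows of 0 bp gave 11 of 513, and windows of 100000 bp gave 267 of 10339, of which 47 were among the 78. With limma 6 passed with the replicate block and 0 without it (24 at an unadjusted p under 0.05). Leaving out replicate 1 gave 1, since 3 loci then had enough fragments, and leaving out replicate 2 gave 75 of 2369. Without the replicate block 82 passed. Egfl7 and Eng did not pass with limma, and the Stx3 locus did not without the ES Medium library (adjusted p = 0.105).

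The mean log2 of HP over ES for the list shares moved from -0.37 to -0.78 for pluripotency with regions in place of fragments, to -0.059 with windows of 0 bp and to -0.17 with windows of 100000 bp, and from 0.58 to 0.20 for blood factors with windows of 100000 bp. For the endothelial list it moved from 0.45 to -0.011 with windows of 0 bp and to 1.07 without the ES Medium library of replicate 2. For the neuronal list it moved from -0.50 to -0.27 with windows of 100000 bp and to -0.36 with regions. By replicate the lists ranged from -0.61 to -0.13, 0.32 to 0.85, -0.47 to 0.25 (blood surface and effectors), 0.38 to 0.52 and -0.59 to -0.41. The difference in recurrence was 0.23 without thinning. The difference in length was -36 bp, -41 bp without replicate 2 and -23 bp without the ES Medium library, and that in distance to a start was -110 bp with shared ends counted once in place of 624 bp.

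Direction reversed for loci that had not passed. With windows of 0 bp this was Jarid2 (0.0099), Itga2b (0.24) and Notch1 (-0.35), and with windows of 100000 bp Gata2 (-0.47), Runx1 (0.65) and Sparc (-0.22). With limma it was Meis1 (-0.067), Nos3 (0.65), Sparc (-0.73) and Notch1 (-1.39), without the replicate block Nos3 (0.048) and Notch1 (-0.066), and without the ES Medium library Sparc (-0.0087, against 0.088 without replicate 2) and Eif2b3 (-0.036). Runx1 gave 0.10 with fragments collapsed and 0.45 with shared ends counted once. The cause was not tested. Replicate 1 held most fragments, so the tests rest largely on it, and depth limits what replicate 2 can show for a single locus.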
